A study of Rattus norvegicus with 4 samples.

Results

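The genes described here build ribosomes: the subunits and initiation factors of RNA polymerase I (Pol I), the small nucleolar ribonucleoprotein (RNP) proteins, the processing factors of both ribosomal subunits, nucleolar scaffold proteins, and Myc. They were taken by symbol from a list of 38 genes, and 36 of these were measured among the 14410 genes of the deposited table; Nhp2 and Heatr1 were not analysed here. The samples were 4 RNA-seq libraries of CG4, a rat line of oligodendrocyte progenitors. In the Phf8oe group (2 libraries) wild-type CG4 cells carried a retrovirus with a CAG promoter driving Phf8 and, through an internal ribosome entry site, GFP. In the ctrl group (2 libraries) the same cells carried a CAG retrovirus with GFP alone. Both groups were sorted for GFP 2 days after transduction, expanded, and held in differentiation medium for 3 days. The labels call the libraries biological replicates but do not say whether these came from separate transductions. The p-values therefore cover only the spread between libraries within a group. For each gene that spread was moderated by a variance prior taken over all tested genes (prior degrees of freedom 6.99 at the median, residual 2).

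Ribosomal RNA is transcribed in the nucleolus by Pol I, which is brought to the ribosomal DNA by UBF (Ubtf), by the SL1 factors (Taf1a to Taf1d with TBP) and by Rrn3. The precursor is then modified by box C/D and box H/ACA RNPs, cleaved and folded by the small and large subunit factors. Myc is the best known activator of these genes. Phf8 is a histone demethylase that, in human cells, is known to bind ribosomal DNA and to promote Pol I transcription. Ribosomal RNA itself was not analysed here, so the measurements concern the messenger RNAs of the machinery. In bulk RNA, a change in the number of expressing cells and a change in RNA per cell cannot be told apart.

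The values are normalized counts, that is, reads per gene divided by a factor for each library. They summed to between 40260658 and 41149255 in Phf8oe and between 39945215 and 40336248 in ctrl. From the spacing of the values, read depth was estimated as 43100000 and 28400000 in Phf8oe replicates 1 and 2, against 47800000 and 39300000 in ctrl replicates 1 and 2. Phf8 had 5650 and 10796 normalized counts in Phf8oe, against 2026 and 2205 in ctrl (log2 fold change 1.89, SE 0.35, limma adjusted p = 0.0631). The 10 oligodendrocyte lineage markers summed to 728996 and 671981 in Phf8oe, against 481149 and 476338 in ctrl. The 5 listed astrocyte markers summed to 12545 and 21452 in Phf8oe, against 80336 and 82115 in ctrl. The 2 listed microglial markers, out of 6, summed to between 61 and 71 in Phf8oe and between 63 and 101 in ctrl. The 5 neuronal markers summed to between 6649 and 7752 in Phf8oe and between 12109 and 17687 in ctrl. Col1a1, the single listed marker out of 5 for fibroblasts and pericytes, had 121 and 164 in Phf8oe, against 454 and 437 in ctrl.

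The question for these genes is whether the ribosome-building machinery differs in level between cells with raised Phf8 and ctrl cells. None of the 36 was called at a limma adjusted p under 0.05, higher or lower, whereas 2.99% of all 14368 tested genes were called higher, 4.65% lower and 7.64% in either direction. The fold changes were small: the log2 fold change ran from -0.27 for Rrn3 to 0.41 for Nop16, with a median of 0.06 beside a median of 0.00 over all tested genes. At an unadjusted p under 0.05 there were 7 members higher in Phf8oe (19.4%, against 12.7% of tested genes) and 1 lower (2.78%, against 13.6%). Both Phf8oe libraries stood above both ctrl libraries for 14 members (38.9%, against 28.9% of tested genes) and below them for 3 (8.33%, against 28.7%). For the other 19 the groups overlapped. With limma-voom weights 0 members were called as well. These shares describe the list, which received no test of its own.

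Most of the changes were bounded by limma's intervals, which draw on a variance prior shared across genes. That prior carried more weight than a gene's own libraries (prior degrees of freedom 6.99 at the median, residual 2). The 95% interval of the fold change, from limma, lay inside a 1.5-fold change in both directions for 32 of 36 members, beside 7001 of 14368 tested genes. The upper bound passed 1.5-fold for Rrp9, Nop16, Npm1 and Tcof1, at 1.52, 1.57, 1.53 and 1.52, and no lower bound passed it. Counting error was below the pooled SD between replicates for 33 of 36 members, the exceptions being Ubtf, Taf1a and Taf1b. The fewest estimated reads behind any value were 203, for Taf1a in Phf8oe replicate 2, which is a counting error of 7.02% beside a pooled SD of 5.37%. All 36 members reached a value of 10 in at least 2 libraries, as the test required.

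**Figure D1:**
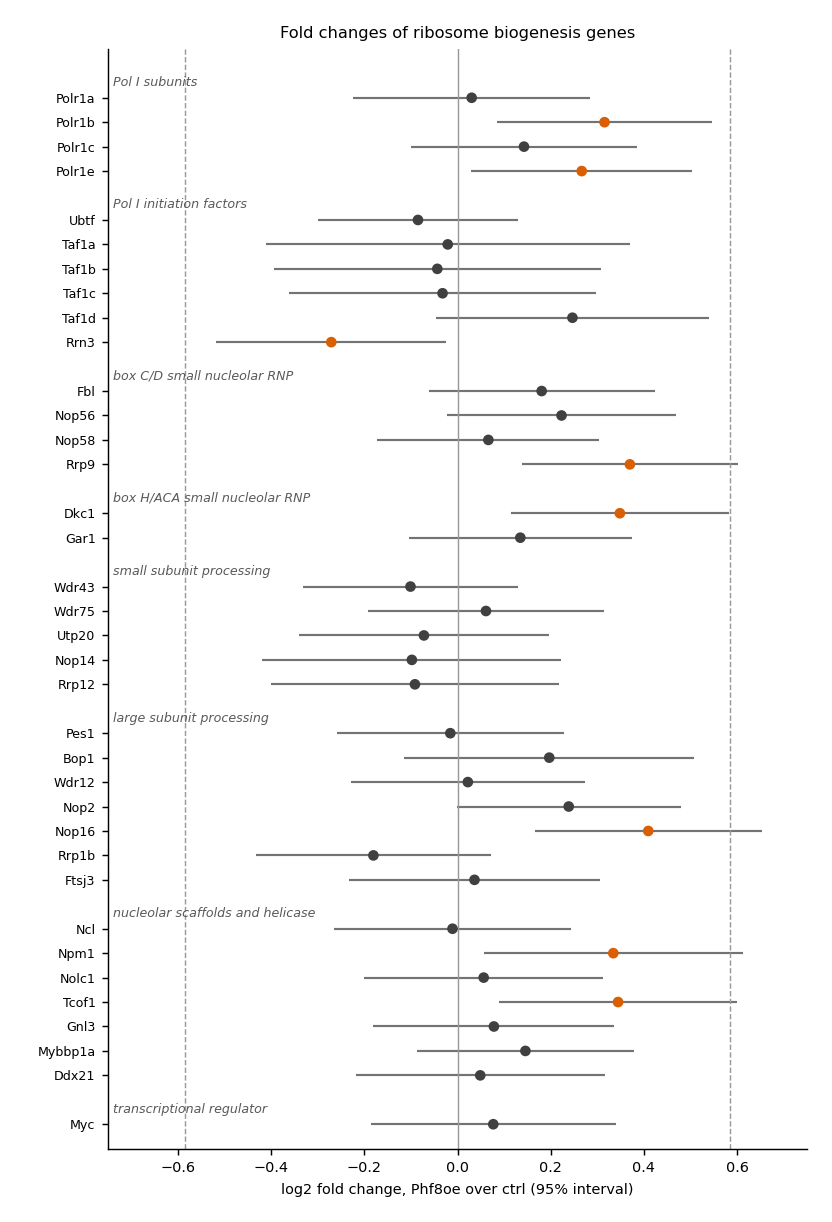
Log2 fold change of each of the 36 members, Phf8oe over ctrl (points), with its 95% interval from limma (lines), grouped by role; the dashed lines mark a 1.5-fold change each way and orange points have an unadjusted p under 0.05. The 8 orange points are 7 higher genes and Rrn3, and only the intervals of Rrp9, Nop16, Npm1 and Tcof1 cross a dashed line.

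Among the Pol I subunits, Polr1b, the second largest catalytic subunit, had 2496 and 2683 normalized counts in Phf8oe, against 2074 and 2085 in ctrl. Both Phf8oe libraries lay above both ctrl libraries, and the 1.24-fold difference did not pass (log2 fold change 0.32, SE 0.10, limma adjusted p = 0.0896). Polr1e, a subunit of the peripheral heterodimer, had 2221 and 2430 in Phf8oe, against 1900 and 1963 in ctrl. The groups were again apart (log2 fold change 0.27, SE 0.10, limma adjusted p = 0.146). Polr1c, which Pol I shares with Pol III, had 2325 and 2530 in Phf8oe, against 2301 and 2098 in ctrl and its groups were narrowly apart. Polr1a, the largest subunit, had 2910 and 3261 in Phf8oe, against 3218 and 2828 in ctrl, where the groups interleaved (log2 fold change 0.03, SE 0.11). The median log2 fold change of the 4 subunits was 0.20.

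Of the initiation factors, 5 of 6 had a log2 fold change below 0, but with upper quartile scaling Taf1a and Taf1c turned above 0 (0.021 and 0.010), and Taf1a, Taf1b and Taf1c each changed sign with some library left out. Rrn3, which makes Pol I competent to initiate, had 1547 and 1715 normalized counts in Phf8oe, against 2019 and 1914 in ctrl. It was the member with the lowest fold change, 1.21-fold lower in Phf8oe with the groups apart, and did not pass (log2 fold change -0.27, SE 0.11, limma adjusted p = 0.155). Ubtf, the architectural factor of active ribosomal DNA, had 5818 and 5852 in Phf8oe, against 6276 and 6104 in ctrl. The Phf8oe libraries were both lower, by a fold change whose interval ran from 0.81 to 1.09. Taf1d, a subunit of SL1, had 1958 and 1801 in Phf8oe, against 1763 and 1421 in ctrl, the only initiation factor with both Phf8oe libraries higher (limma adjusted p = 0.259). The other 3 SL1 subunits, Taf1a, Taf1b and Taf1c, overlapped between groups, with log2 fold changes between -0.04 and -0.02. Taf1a and Taf1b had the smallest values of all members, between 264 and 402 in Phf8oe and between 270 and 405 in ctrl.

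All 6 measured proteins of the small nucleolar RNPs had a log2 fold change above 0, against 50.4% of tested genes. For 5 of them both Phf8oe libraries lay above both ctrl libraries, against 28.9% of tested genes. This class received no test of its own. Rrp9, the U3-specific protein needed for the first cleavages of the precursor, had 3538 and 3824 normalized counts in Phf8oe, against 2956 and 2741 in ctrl. Each Phf8oe library was above each ctrl library, and the 1.29-fold difference missed the threshold (log2 fold change 0.37, SE 0.10, limma adjusted p = 0.0587). Nop56, a core protein of box C/D RNPs, had 10807 and 11255 in Phf8oe, against 10165 and 8783 in ctrl (log2 fold change 0.22, SE 0.11, limma adjusted p = 0.229). Fbl, the methyltransferase fibrillarin of the same particles, had 5261 and 6117 in Phf8oe, against 5049 and 4963 in ctrl. Nop58, its other core protein, overlapped between groups, with 6591 and 7409 in Phf8oe and 6927 and 6433 in ctrl.

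Dkc1, the pseudouridine synthase dyskerin of box H/ACA RNPs, had 9510 and 10704 normalized counts in Phf8oe, against 7858 and 7993 in ctrl. The groups were apart and the difference was 1.27-fold (log2 fold change 0.35, SE 0.10, limma adjusted p = 0.0719). Its partner Gar1 had 1894 and 1947 in Phf8oe, against 1820 and 1681 in ctrl, a difference of 1.10-fold (limma adjusted p = 0.454).

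For the measured factors of small subunit processing the groups overlapped for 5 of 5 genes, beside 6096 of 14368 tested genes. Wdr43, a component of the early processome, had 3870 and 4103 normalized counts in Phf8oe, against 4493 and 4066 in ctrl (log2 fold change -0.10, SE 0.10, limma adjusted p = 0.571). Nop14, Rrp12 and Utp20 had log2 fold changes of -0.10, -0.09 and -0.07, and Wdr75 of 0.06, none past the threshold. Nop14 differed more within the groups than between them, with 2928 and 3802 in Phf8oe and 3810 and 3348 in ctrl.

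The large subunit factors held the member closest to the threshold. Nop16, a nucleolar protein of early large subunit particles, had 3225 and 3650 normalized counts in Phf8oe, against 2678 and 2492 in ctrl. The groups were apart and the difference was 1.33-fold (log2 fold change 0.41, SE 0.11, limma adjusted p = 0.0521). Nop2, a cytosine methyltransferase of 28S rRNA, had 5248 and 6006 in Phf8oe, against 4896 and 4625 in ctrl (log2 fold change 0.24, SE 0.11, limma adjusted p = 0.193). The PeBoW complex, made of Pes1, Bop1 and Wdr12, showed no separation. Bop1 had 9495 and 12164 in Phf8oe, against 10005 and 8788 in ctrl, and the Phf8oe libraries enclosed the ctrl libraries' upper value. Pes1 and Wdr12 had log2 fold changes of -0.02 and 0.02. Rrp1b, a nucleolar protein that also binds chromatin, had 2082 and 2384 in Phf8oe, against 2620 and 2434 in ctrl, both lower in Phf8oe (limma adjusted p = 0.335). Ftsj3, a methyltransferase, had a log2 fold change of 0.04.

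Of the nucleolar scaffold proteins, Npm1, the histone chaperone nucleophosmin, had 26137 and 32201 normalized counts in Phf8oe, against 22672 and 23359 in ctrl. Both Phf8oe libraries were higher but far from each other, and the 1.26-fold difference did not pass (log2 fold change 0.33, SE 0.12, limma adjusted p = 0.125). Tcof1, the treacle protein that organises Pol I and UBF, had 2028 and 2284 in Phf8oe, against 1623 and 1770 in ctrl (log2 fold change 0.34, SE 0.11, limma adjusted p = 0.0933). Its groups were apart as well. Nucleolin, encoded by Ncl, had 31393 and 35256 in Phf8oe, against 35004 and 32103 in ctrl, and its interval of fold change ran from 0.83 to 1.18. Mybbp1a, a Myb-binding repressor found in the nucleolus, had 16784 and 17352 in Phf8oe, against 16130 and 14756 in ctrl, apart but 1.11-fold in size (limma adjusted p = 0.405). Nolc1, a chaperone of small nucleolar RNPs, Gnl3 (nucleostemin) and the helicase gene Ddx21 overlapped between groups, with log2 fold changes between 0.05 and 0.08.

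Myc had 20571 and 23868 normalized counts in Phf8oe, against 20022 and 22052 in ctrl. The 2 groups interleaved, and the interval of the fold change ran from 0.88 to 1.27 (log2 fold change 0.08, SE 0.12, limma adjusted p = 0.716).

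**Figure D2:**
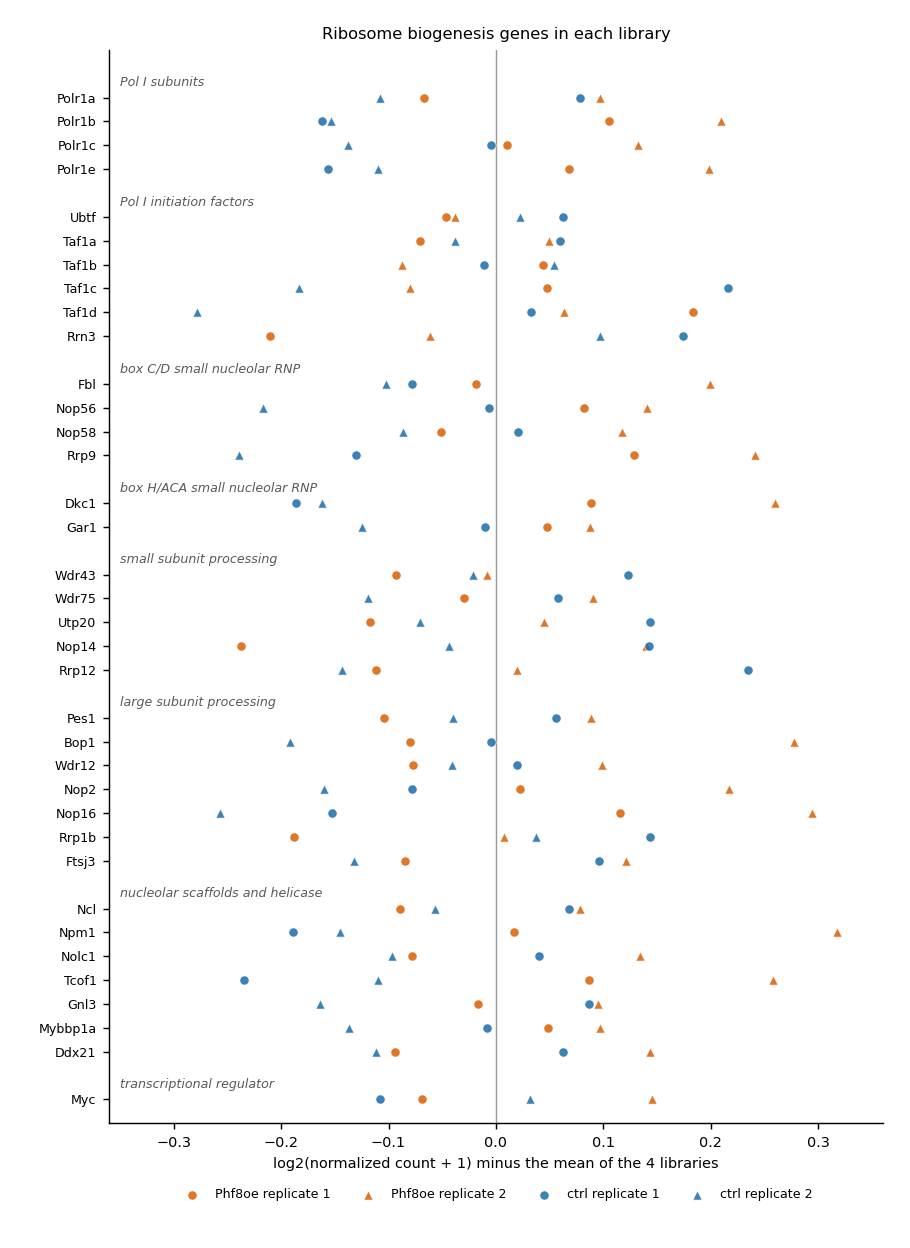
Each member's log2(normalized count + 1) in the 4 libraries, minus its mean over the 4, with Phf8oe in orange and ctrl in blue and circles for replicate 1 and triangles for replicate 2. Orange points lie right of both blue points for 14 genes and left of both for 3 (Ubtf, Rrn3 and Rrp1b), and the orange triangle lies right of the orange circle for 33 of 36.

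The libraries within a group differed in a shared direction across these genes. Phf8oe replicate 2 was above Phf8oe replicate 1 for 33 of 36 members (91.7%, against 50.4% of all tested genes), with a median difference of 0.16 on the log2 scale. The 3 exceptions were Taf1b, Taf1c and Taf1d. Within ctrl, replicate 1 was above replicate 2 for 29 members (80.6%, against 49.1% of tested genes), with a median difference of 0.11. Both medians exceed the 0.06 of the group comparison. The comparison therefore depended on which libraries were set against each other. The median of the members was -0.08 for Phf8oe replicate 1 minus ctrl replicate 1, where 16 of 36 were higher in Phf8oe. It was 0.22 for Phf8oe replicate 2 minus ctrl replicate 2, where 32 of 36 were higher. The medians over all tested genes were 0.00 in both of these pairs. As shares of each library, the members summed to 5523 and 6392 CPM, that is, scaled to equal library totals, in Phf8oe, against 5709 and 5425 CPM in ctrl.

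**Figure D3:**
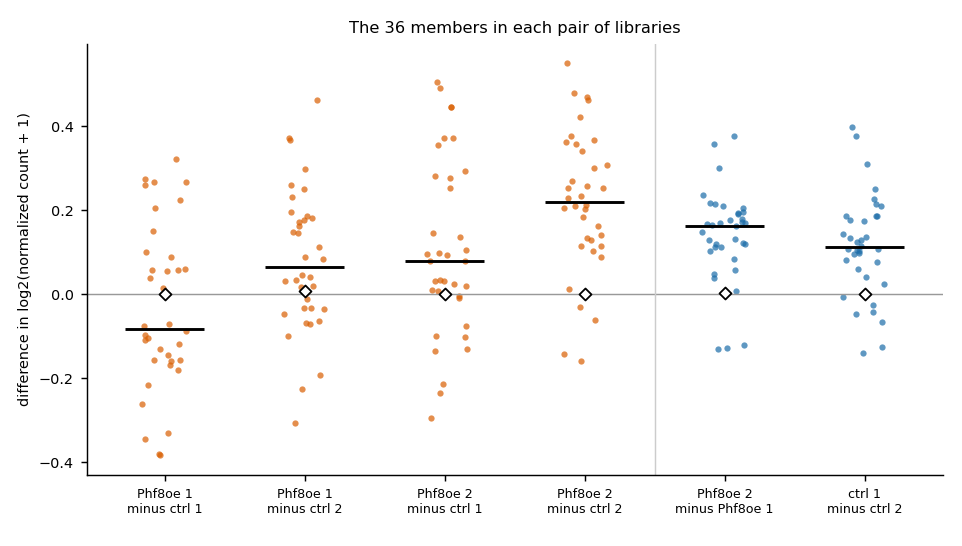
Differences in log2(normalized count + 1) of the 36 members for each Phf8oe library minus each ctrl library (orange, left) and between the libraries of 1 group (blue, right); bars are the members' medians and white diamonds the medians of all tested genes. The bars lie between -0.08 and 0.22 on the left and at 0.16 and 0.11 on the right, while the diamonds stay at 0.00 or 0.01.

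Phf8oe replicate 2 was also the library with the most Phf8 (10796 normalized counts, against 5650 in Phf8oe replicate 1) and the fewest estimated reads, about 28400000. The cell cycle list of 38 tested genes moved with the same libraries in Phf8oe, where 37 were higher in replicate 2 than in replicate 1, but not in ctrl, where 11 were higher in replicate 1 than in replicate 2. Their sum was 1539 and 1776 CPM in Phf8oe replicates 1 and 2, against 1339 and 1487 CPM in ctrl replicates 1 and 2. The part of Phf8 level, depth, cycling or the marker levels given above in the members' values was not tested. Without Phf8oe replicate 1, 5 of 36 members were called (13.9%, against 12.2% of all tested genes in that fit), namely Rrp9, Dkc1, Nop16, Npm1 and Tcof1. There the spread is that between the ctrl libraries alone, and the log2 fold changes ran from 0.43 to 0.50, with adjusted p between 0.0119 and 0.0386. Leaving out any other library in turn did not give these calls. Without either ctrl library far fewer genes of any kind were called, so their absence there is not particular to the members. Without Phf8oe replicate 2 the log2 fold change of Rrn3 was -0.35.

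The promoters of the 3 members nearest to the threshold are shown for their sequence context, from RefSeq, 250 bases before to 50 after the annotated start, with capitals marking any E-box (CACGTG, the site bound by Myc with Max). That assembly is not the build behind the counts.
Nop16 (GRCr8, chr17:10027808-10028107, plus strand): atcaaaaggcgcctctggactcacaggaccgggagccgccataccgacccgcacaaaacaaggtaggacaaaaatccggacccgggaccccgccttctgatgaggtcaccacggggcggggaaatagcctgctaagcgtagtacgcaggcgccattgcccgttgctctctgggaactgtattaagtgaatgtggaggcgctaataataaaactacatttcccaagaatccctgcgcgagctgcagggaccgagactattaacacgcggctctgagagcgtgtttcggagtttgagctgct
Rrp9 (GRCr8, chr8:115995930-115996229, plus strand): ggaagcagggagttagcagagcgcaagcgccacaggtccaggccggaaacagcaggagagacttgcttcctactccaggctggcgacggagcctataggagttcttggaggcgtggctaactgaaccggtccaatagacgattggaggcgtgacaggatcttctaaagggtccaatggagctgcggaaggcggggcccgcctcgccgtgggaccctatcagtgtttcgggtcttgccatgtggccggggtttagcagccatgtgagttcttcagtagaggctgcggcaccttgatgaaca
Dkc1 (GRCr8, chrX:157751401-157751700, plus strand): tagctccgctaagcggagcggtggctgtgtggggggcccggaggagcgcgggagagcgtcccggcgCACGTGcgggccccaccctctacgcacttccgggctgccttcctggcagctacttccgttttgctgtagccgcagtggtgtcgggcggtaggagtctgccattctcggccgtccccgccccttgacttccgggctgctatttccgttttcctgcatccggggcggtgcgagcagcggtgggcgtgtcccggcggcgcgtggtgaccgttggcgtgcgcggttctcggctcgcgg

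Dkc1 alone of these 3 held an E-box in this window, at base -184 from its start. Over the 32 members with a promoter in the RefSeq table, 9 held at least 1 E-box (28.1%), against 869 of 9333 promoters of tested genes (9.31%). The motif is its own reverse complement, so 1 strand covers both. The median log2 fold change was 0.08 for the 9 members with an E-box and 0.06 for the 23 without. The core of ETS factor sites, CCGGAAG on either strand, occurred in 12 of 32 members (37.5%) and in 1599 of 9333 promoters (17.1%). The members' median log2 fold change was 0.14 with this motif and 0.03 without it, a description only. The ratio of observed to expected CpG had a median of 0.88 in the members and 0.77 in all 9333 promoters. The E-box sites of the 8 other members are given with up to 20 bases on each side (GRCr8), Mybbp1a having 2 such sites.
Fbl (chr1:92597408-92597453, plus strand): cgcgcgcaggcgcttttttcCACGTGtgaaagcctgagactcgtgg
Wdr75 (chr9:55395052-55395097, plus strand): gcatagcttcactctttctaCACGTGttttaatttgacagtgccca
Utp20 (chr7:25102951-25102996, minus strand): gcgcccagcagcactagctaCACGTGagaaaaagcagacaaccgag
Rrp12 (chr1:250655290-250655335, minus strand): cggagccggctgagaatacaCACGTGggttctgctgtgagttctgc
Pes1 (chr14:83074276-83074321, plus strand): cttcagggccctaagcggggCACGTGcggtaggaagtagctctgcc
Nop2 (chr4:159618984-159619015, plus strand): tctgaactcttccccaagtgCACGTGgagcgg
Gnl3 (chr16:6219782-6219827, minus strand): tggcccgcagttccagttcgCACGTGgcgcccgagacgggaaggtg
Mybbp1a (chr10:57555282-57555327, plus strand): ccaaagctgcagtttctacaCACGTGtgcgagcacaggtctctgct
Mybbp1a (chr10:57555437-57555482, plus strand): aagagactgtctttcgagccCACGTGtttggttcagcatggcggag

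The Pes1, Gnl3, Rrp12, Nop2 and Fbl sites and the second Mybbp1a site lie within 50 bases of the annotated start, between base -50 for Pes1 and base 39 for Nop2. Those of Wdr75, Utp20, Dkc1 and the first Mybbp1a site lie farther upstream, between -184 and -127. A match in letters is not evidence that a factor bound there.

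Several members also carry small nucleolar RNA genes in their introns or spans. RefSeq placed 27 such genes inside 6 of the 36 members (16.7%), namely Taf1d, Nop56, Nop58, Wdr43, Ncl and Gnl3, against 306 of 12093 placed tested genes (2.53%). Taf1d held 8, the most of any member. The median log2 fold change was 0.07 in these 6 and 0.06 in the other 30. Pseudogenes are listed under the names of 13 members in RefSeq, among them 20 for Npm1, 9 for Ddx21 and 7 for Fbl, and how reads that fit several places were counted is not stated. The values of these members are uncertain to that extent. Overlap with another tested gene was seen for 5 of 36 members (13.9%, against 15.2% of placed tested genes). Rrp9 overlaps Parp3, which had 162 and 290 in Phf8oe, against 629 and 527 in ctrl, and Bop1 overlaps Mroh1, which had 2024 and 1678 in Phf8oe, against 2578 and 2567 in ctrl. Parp3 and Mroh1 were both called lower, opposite in direction to Rrp9 and Bop1. Neither call held without either ctrl library, where far fewer genes of any kind were called. With the replicate block neither passed (limma adjusted p = 0.0762 for Parp3 and 0.0902 for Mroh1). Mroh1 also fell short with upper quartile scaling (0.0526) and without robust moderation (0.0647). The log2 fold changes of Parp3 and Mroh1 were -1.28 and -0.48 without ctrl replicate 1, and -1.53 and -0.48 without ctrl replicate 2. Gnl3 overlaps Pbrm1, Taf1d overlaps Cep295 and Wdr12 overlaps Carf, none of which was called. Since no use of strand is stated, a read in such an overlap could have been counted for either gene.

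A longer list of ribosome biogenesis genes, with 137 tested, is set beside the 36 members. It covers further Pol I subunits, processome, assembly, exosome and RNP assembly genes. Of these, 2 were called higher, none lower and 135 did not pass (1.46% called, against 7.64% of all tested genes). Its median log2 fold change was 0.06. There were 53 genes (38.7%, against 28.9% of tested genes) apart and higher in Phf8oe and 14 (10.2%, against 28.7%) apart and lower. Nop10, the smallest core protein of the box H/ACA RNP to which Dkc1 and Gar1 belong, had 4799 and 4994 normalized counts in Phf8oe, against 3577 and 3816 in ctrl. It rose 1.32-fold (log2 fold change 0.41, SE 0.10, limma adjusted p = 0.0391). Nop53, a large subunit factor that recruits the exosome, had 8190 and 8328 in Phf8oe, against 5890 and 6556 in ctrl. It rose 1.33-fold (log2 fold change 0.41, SE 0.10, limma adjusted p = 0.0428). Both calls were lost without either ctrl library. Far fewer genes of any kind were called in those fits, so the loss is not particular to Nop10 and Nop53.

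The proteins of the ribosome itself are set beside its assembly factors here. The ribosomal protein and cell cycle lists were already known to have moved in these data when they were chosen. Of 71 tested cytosolic ribosomal protein genes 18 were called higher (25.4%, against 2.99% of all tested genes) and none lower. Their median log2 fold change was 0.38, and 65 of 71 (91.5%, against 28.9% of tested genes) had both Phf8oe libraries above both ctrl libraries. Some genes of the list had low values, such as Rplp2 (35 and 54 in Phf8oe, against 46 and 52 in ctrl) and Rpl9 (18 and 25, against 14 and 20). How reads that fit several places were counted is not stated, so the values of this list are uncertain to that extent. Rps20, a small subunit protein, had 10198 and 10921 in Phf8oe, against 6621 and 6983 in ctrl, a rise of 1.55-fold (limma adjusted p = 0.00898). Rpl17 had 10999 and 11770 in Phf8oe, against 6940 and 8112 in ctrl, a rise of 1.52-fold (limma adjusted p = 0.0168). In ctrl these genes went the other way from the members, with 4 of 71 higher in replicate 1 than in replicate 2, against 29 of 36 members. The cell cycle list had 4 of 38 genes called higher (10.5%, against 2.99% of all tested genes) and none lower, with a median of 0.29. Cdc20, the activator of the anaphase ubiquitin ligase, had 2585 and 2744 in Phf8oe, against 1638 and 1964 in ctrl, a rise of 1.48-fold (limma adjusted p = 0.026). Ccne1, the cyclin of S phase entry, had 1206 and 1427 in Phf8oe, against 895 and 864 in ctrl, a rise of 1.49-fold (limma adjusted p = 0.0296). The calls of both lists were lost without ctrl replicate 1 and without ctrl replicate 2, fits in which far fewer genes of any kind were called. Without Phf8oe replicate 1 more genes of both lists were called. With the replicate numbers as a block 2 ribosomal protein genes and 0 cell cycle genes were called, and without robust moderation 6 and 3. With upper quartile scaling 33 ribosomal protein genes were called. Whether the lists differ from each other was not tested, since the genes of a list are not replicates of the condition.

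**Figure D4:**
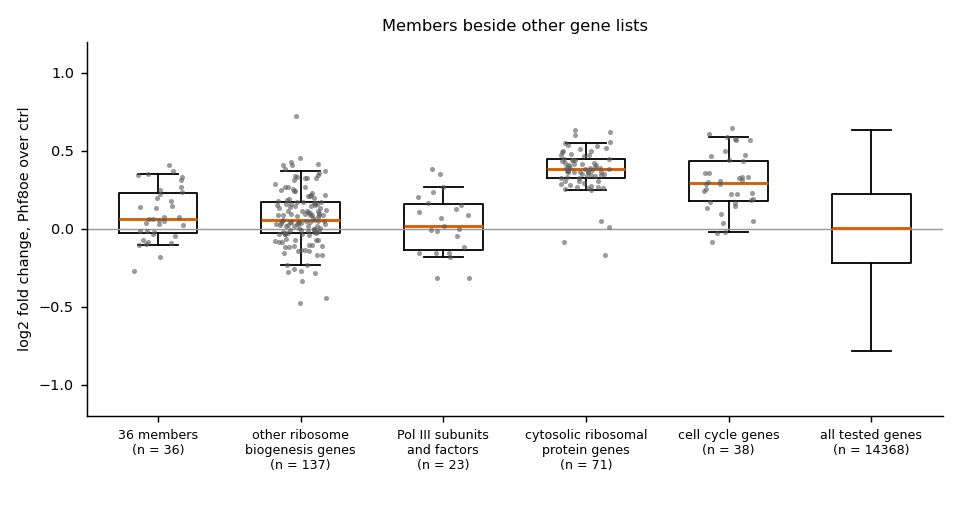
Log2 fold changes, Phf8oe over ctrl, of the 36 members, of 4 other gene lists and of all 14368 tested genes; boxes span the quartiles with the median in orange, whiskers the 5th to 95th percentile, and points are single genes, not drawn for all tested genes. The members' median lies at 0.06, that of the cytosolic ribosomal protein genes at 0.38 and that of all tested genes at 0.00.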

How the data were processed

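Total RNA of 2 Phf8oe and 2 ctrl samples was sequenced in pairs of 150 bases after preparation with a NEBNext Ultra II kit, per the labels. The submitters' processing notes name STAR 2.5.2b, Trimmomatic 0.36, DESeq2 and bcl2fastq 2.20, and the builds rn6 and Rnor_6.0. Which program counted reads, with which annotation, strand setting and filter, is not stated there. The authors' deposited signal per gene is named raw counts, but its values behave as counts divided by a library factor and rounded. In Phf8oe replicate 2, 85 of 85 whole numbers from 10 to 300 that a spacing of 1.4159 per read would skip were absent. Single reads could not be recovered where the spacing is under 1, so no raw count model was fitted. The spacing also gave the estimated reads per library.

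Values were compared with limma 3.58.1 (R 4.3.3) on log2(value + 1), a scale that understates folds of low genes, for all genes that reached 10 in 2 or more libraries. Group was the only term, and the variance prior was robust and followed the mean (prior degrees of freedom 6.99 at the median, residual 2). P-values are two-sided, with Benjamini-Hochberg adjustment over all 14368 genes and a threshold of 0.05. Intervals are limma's 95% intervals. The procedure was tested on simulated data with known changes, all larger than the members' fold changes here. No shift shared by the genes of a library was simulated. That test cannot tell how often changes as small as the members' would be called.

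Members and lists were chosen with earlier results of these data known. Values in every library are given for members with non-overlapping groups and an unadjusted p under 0.05, for the member with the most counts and the one with the largest change in each role class, and for Myc; values of other members were chosen after they were seen. Of the other lists, called genes or the 2 with the smallest p are named, except 1 gene that is not reported here. Promoters and gene positions are from RefSeq tables of the GRCr8 assembly, matched by symbol. Alternatives covered scaling, filter, pseudocount, variance moderation, limma-voom weights, replicate numbers as a block and leaving out each library. Tables and plots were made in Python 3.11.15 (pandas 2.3.3, matplotlib 3.10.9).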

Additional observations from a re-analysis of the deposited data

How the results depend on the processing

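Over the alternatives, 499 of 540 refitted log2 fold changes of the 36 members kept their direction and their side of the threshold, 10 passed it and 31 changed sign. Most of this agreement in direction was fixed in advance. The filters, variance settings and blocks leave a fold change as it is, and the pseudocounts and limma-voom weights barely move it. Signs could change mainly with rescaling or with a library left out. With upper quartile scaling, which moved the median of all genes by under 0.1 to 0.05, 2 members were called (Rrp9 and Nop16, 5.56% of members against 8.45% of all genes) and 5 genes of the longer list, and the log2 fold change turned to 0.021 for Taf1a, 0.010 for Taf1c, 0.027 for Pes1 and 0.032 for Ncl. With no variance trend no gene was called in limma (5 members had an unadjusted p under 0.05), and the longer list had 0 calls there, without robust moderation and with the replicate block. Without robust moderation Phf8 passed at an unchanged log2 fold change of 1.89 (adjusted p = 0.0194). The replicate numbers mark no shared culture in the labels, and the deviations of same-numbered libraries correlated at -0.126. With the replicate block 373 genes were called, none a member, and Phf8 passed at 1.89 (adjusted p = 0.0313). With the numbers crossed, an alternative chosen after seeing the data, 2354 genes were called, 3 members (8.33%, against 16.4% of all genes) and 11 of the longer list.

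Leaving out 1 library at a time, the genes called ranged from 14 (without ctrl replicate 1) to 2103, with 160 without ctrl replicate 2 and 1754 without Phf8oe replicate 1. Members called ranged from 0 to 5, members with non-overlapping groups from 24 to 30 (66.7% to 83.3%, against 73.6% to 81.6% of all genes, since 1 library in a group makes overlap rarer for any gene), and calls in the longer list from 0 to 13. The log2 fold change of Phf8 ranged from 1.42 to 2.35. The sign of 17 members changed for at least 1 library, with ranges of -0.063 to 0.12 for Polr1a, -0.081 to 0.039 for Taf1a, -0.11 to 0.022 for Taf1b, -0.23 to 0.17 for Taf1c, -0.018 to 0.15 for Nop58, -0.027 to 0.15 for Wdr75, -0.18 to 0.035 for Utp20, -0.29 to 0.090 for Nop14, -0.28 to 0.097 for Rrp12, -0.11 to 0.081 for Pes1, -0.066 to 0.11 for Wdr12, -0.077 to 0.15 for Ftsj3, -0.095 to 0.073 for Ncl, -0.050 to 0.16 for Nolc1, -0.047 to 0.20 for Gnl3, -0.070 to 0.17 for Ddx21 and -0.031 to 0.18 for Myc. The causes were not tested. With 2 libraries per group, the 95% interval of a member had a median half-width of 0.25 (log2), which limits the differences these data can show.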

Other observations

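RNA polymerase III, which makes 5S rRNA and transfer RNA, was covered by a list of 23 tested subunits and factors. None of the 23 was called in limma, against 7.64% of all tested genes. At an unadjusted p under 0.05 there were 2 higher (8.70%, against 12.7% of tested genes) and 1 lower (4.35%, against 13.6%). With upper quartile scaling 1 was called higher, where 8.45% of all genes were called in either direction. Leaving out a Phf8oe library also gave calls, higher without replicate 1 and lower without replicate 2. Those fits called more genes of any kind than the main fit. The median log2 fold change was 0.01. Bdp1, a subunit of the initiation factor TFIIIB, had 1321 and 1375 in Phf8oe, against 1697 and 1654 in ctrl (limma adjusted p = 0.1).

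In the list of Myc partners and classic Myc targets, 3 of 16 tested genes were called (18.8%, against 7.64% of all tested genes). Cad, which starts pyrimidine synthesis, had 6793 and 6250 normalized counts in Phf8oe, against 4436 and 4774 in ctrl, a rise of 1.42-fold (limma adjusted p = 0.0235). Mlxip, a partner of Mlx, fell 1.51-fold to 1210 and 1276 in Phf8oe, against 2048 and 1715 in ctrl (limma adjusted p = 0.0251). Ldha, lactate dehydrogenase A, had 85848 and 95122 in Phf8oe, against 119990 and 127908 in ctrl (log2 fold change -0.46, limma adjusted p = 0.0463). These 3 calls were lost without either ctrl library, where far fewer genes of any kind were called. With the replicate block no gene of this list was called. With upper quartile scaling, and without robust moderation, 1 was called higher and 1 lower.

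Of 17 tested genes of the p53 response, which nucleolar stress is known to raise, 1 was called higher and none lower. That is 5.88% called, against 7.64% of all tested genes. With equal library totals or a pseudocount of 5, 2 were called lower as well, and without Phf8oe replicate 2 there were 5 called lower. Gadd45a had 2643 and 2595 normalized counts in Phf8oe, against 1459 and 1676 in ctrl, a rise of 1.67-fold (limma adjusted p = 0.00795). Leaving out either ctrl library ended that call, as it did most calls over all genes. The log2 fold change of Gadd45a was 0.64 without ctrl replicate 1 and 0.84 without ctrl replicate 2. Tp53inp1 had 285 and 313 in Phf8oe, against 603 and 423 in ctrl, and did not pass (limma adjusted p = 0.0503). It passed with equal library totals (adjusted p = 0.038), with a pseudocount of 5 (0.049) and without Phf8oe replicate 2 (0.0205), and its adjusted p reached 0.431 without ctrl replicate 1. The median log2 fold change of the list was -0.10, and 2 of its genes, Rpl5 and Rpl11, are also ribosomal protein genes.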
